A study of Mus musculus with 20 samples.

Results

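Z-disc genes and the kinase gene Srpk3 were examined in gastrocnemius, a calf muscle, of mice given the anti-myostatin antibody JA16 or saline. The members were 10 genes named by symbol (Pdlim3, Ldb3, Pdlim5, Pdlim7, Myot, Tcap, Actn2, Srpk3, Fhl1 and Ankrd2), and every probe set that the array annotation gives to 1 of them alone was taken, 24 of the 34945 single-gene probe sets, which cover 18193 genes. JA16 mice (10 samples) received the antibody into the peritoneum at 0.12 mg per g body weight on day 1 and 0.09 mg per g on day 3, and saline mice (10 samples) received saline on the same days. All mice were killed on day 5, and total RNA from the muscle was copied into cDNA, which was amplified, labelled and hybridised to Affymetrix mouse arrays. The labels give no strain, sex or age, and nothing in them ties a sample to a single animal, so the p-values are over samples. In the fit that pairs same-numbered samples they measure the spread of the within-pair differences, and without pairing the spread between samples. Both spreads may in part be technical.

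The Z-disc is the border between neighbouring sarcomeres, where actin filaments of opposite direction are held together by alpha-actinin. Some proteins with a PDZ domain and LIM domains dock on alpha-actinin there, and small linkers tie the lattice to titin. Srpk3 encodes a muscle-restricted kinase of splicing factors rich in serine and arginine. In mice its gene is known as a target of the muscle transcription factor MEF2. Myostatin, which JA16 binds, is a secreted inhibitor of muscle growth.

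Values are MAS5 intensities, and differences are log2 of JA16 minus log2 of saline from a fit in limma in which same-numbered samples form a pair, with their standard errors (SE). P-values were adjusted by the Benjamini-Hochberg method over the 22517 probe sets whose mean log2 intensity reached the median of the table, an intensity of 50.1, and a probe set was called at an adjusted p under 0.05. Of the member probe sets 17 passed this filter, with at least 1 for each of the 10 genes. The other 7 had geometric mean intensities between 3.27 and 23.9.

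The arrays differed in ways that touch these genes. The 3' to 5' signal ratio of the beta-actin control split the arrays into replicates 1 to 6 (log2 1.33 to 1.84) and replicates 7 to 10 (0.48 to 0.64) in both groups. The same ratio of the Gapdh control overlapped between these sets (0.21 to 0.41 and 0.18 to 0.32). Within pairs the beta-actin ratio differed by a mean of -0.13 on the log2 scale (JA16 minus saline) and was lower in JA16 in 8 of 10 pairs. Its part in the results was not tested beyond a fit with it as a covariate. In that fit 0 of the 17 member probe sets were called and 9 had an unadjusted p under 0.05 (8.92% of all probe sets). The differences of Srpk3 1418798_s_at and Ldb3 1451999_at were 0.47 and 0.60 in that fit. JA16 replicate 3 stood apart in fibre type genes: the mean log2 intensity of 11 genes of slow fibres was 8.72 there, against 11.31 to 13.10 in the other JA16 samples and 11.63 to 12.81 in saline samples. Of 12 fast fibre genes 2 were also below every other sample there, the myosin heavy chain genes Myh2 (1933, against at least 14304 in other JA16 and 12852 in saline samples) and Myh1 (9796, against at least 14695 and 14622). The alpha-actinin 3 gene Actn3, a marker of fast skeletal muscle fibres, was at 26246 ± 2892 in JA16 and 24514 ± 2485 in saline samples (SD, n = 10 each).

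In the paired fit 1 probe set of Srpk3 and 1 of Ldb3 rose in JA16 muscle, by 1.37-fold and 1.46-fold, and neither call held in every fit that left out a pair. These were 2 of the 17 member probe sets, both higher and 0 lower, while 28 of all 22517 were called higher (0.124%) and 17 lower (0.0755%) with limma. At an unadjusted p under 0.05, 8 of the 17 were higher and 0 lower, against 6.37% and 9.31% of all probe sets (15.7% together). The fitted difference was above 0 in 15 of the 17, with a median of 0.15, against 42.3% of all probe sets and a median of -0.036. With quantile normalization 11 of the 17 were above 0. By the brightest probe set of each gene 9 of 10 were above 0, and 5 of 10 with quantile normalization. The members were chosen with earlier results of these data known, so these shares do not test them as a set. Without the pairing 0 of the 17 were called, 2 of all probe sets were (0.00888%), and 5 of the 17 had an unadjusted p under 0.05 (2.22% of all, 0.981% higher and 1.24% lower). In 4 of the 17, 2 of Srpk3 and 1 each of Ldb3 and Pdlim3, the JA16 sample was above its saline partner in all 10 pairs, which held for 0.475% of all probe sets tested. The groups overlapped in all 17, as they did in every probe set tested (0% without overlap).

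**Figure D1:**
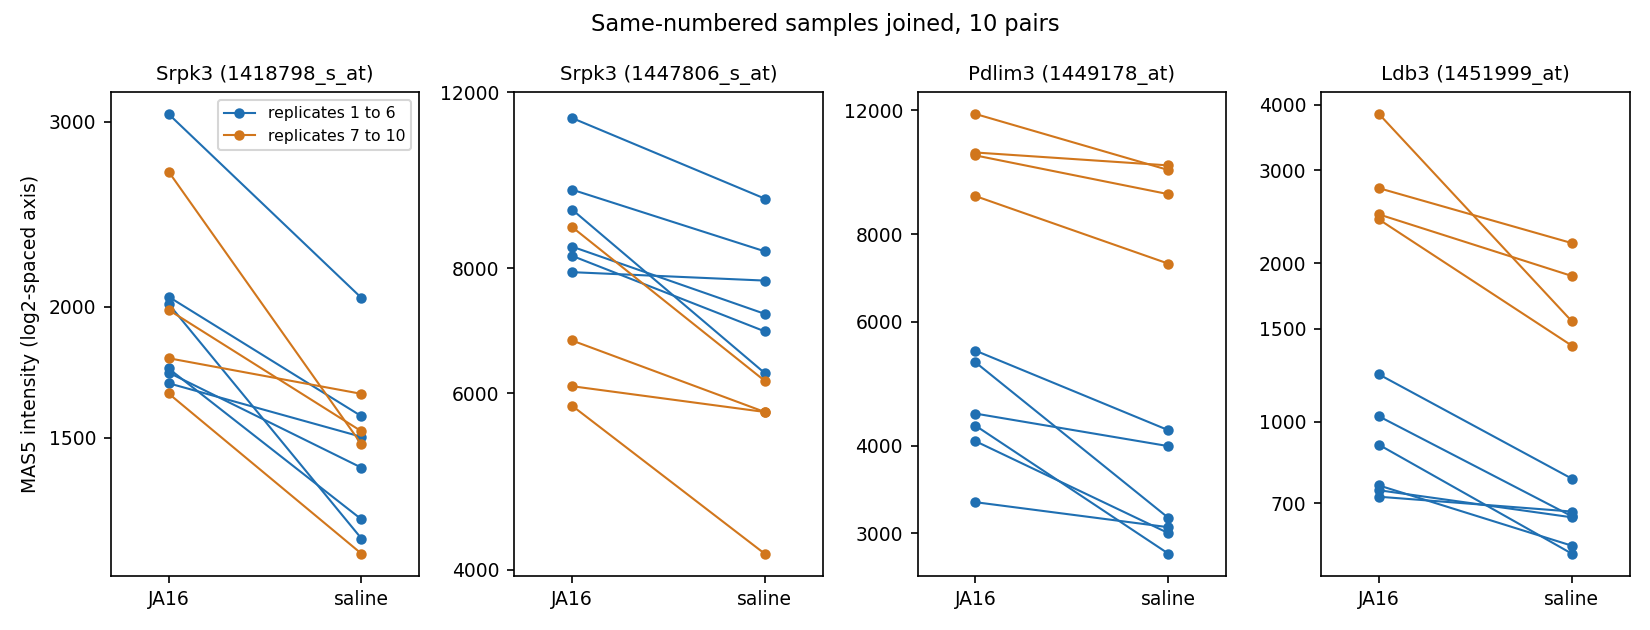
MAS5 intensity (log2-spaced axis) of 4 probe sets in JA16 and saline samples, with a line joining same-numbered samples and colour marking replicates 1 to 6 and 7 to 10. All 10 lines slope down from JA16 to saline in each panel, and the Ldb3 and Pdlim3 panels show the 2 array sets at separate levels.

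Srpk3 had 4 probe sets, of which 3 passed the filter. On 1418798_s_at its intensity was 1653 at the lowest, 1886 at the median and 3051 at the highest in JA16 samples, against 1164, 1491 and 2039 in saline samples. Each JA16 sample was above its own partner, by 0.11 to 0.86 on the log2 scale, and 3 of the 10 JA16 samples lay above the highest saline sample. The log2 difference was 0.45 (SE 0.078, limma adjusted p = 0.0356), with 0.44 (SE 0.093) for replicates 1 to 6 and 0.47 (SE 0.15) for the later 4 pairs. The size held with any 1 pair left out (0.41 to 0.49), but the call was kept only without pair 1, 2 or 10. It was lost without pair 3, 4, 5, 6, 7, 8 or 9, with adjusted p between 0.0581 and 0.119, and without pairing (SE 0.13, limma adjusted p = 0.9999).

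A brighter Srpk3 probe set, 1447806_s_at, had intensities of 5832, 8321 and 11303 (lowest, median, highest) in JA16 samples, against 4147, 6601 and 9389 in saline samples. Its difference of 0.28 (SE 0.056) missed the threshold (limma adjusted p = 0.0587), although all 10 pairs were higher by 0.028 to 0.54. The call appeared without pair 1 (adjusted p = 0.0344). The difference was 0.17 smaller than on 1418798_s_at (SE 0.043, exact sign-flip p = 0.00977, adjusted p = 0.0326 over the 10 comparisons of probe sets within a gene), and 9 of 10 pairs ran that way. This test between probe sets was chosen after seeing the data. Endings in s mark probe sets that can match more than 1 transcript, which applies to both of these Srpk3 probe sets. The third, 1431825_at, was dim, at 133 to 268 in JA16 and 107 to 228 in saline samples, with a difference of 0.17 (SE 0.14, limma adjusted p = 0.535) and 7 of 10 pairs higher.

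The 250 bases before the annotated start of Srpk3 are shown because mouse Srpk3 is known to be under MEF2 control, and those of Ldb3 and Pdlim3 because they too were higher in all 10 pairs. The sequences are RefSeq's, build GRCm38.p6, read 5' to 3' toward the start, with capitals for matches on the strand shown to the MEF2 motif, the CArG box bound by serum response factor, or the E-box CANNTG of myogenic factors. All 3 motifs read the same on both strands, and no matches overlapped.
Srpk3, chrX:73774155-73774404, plus strand: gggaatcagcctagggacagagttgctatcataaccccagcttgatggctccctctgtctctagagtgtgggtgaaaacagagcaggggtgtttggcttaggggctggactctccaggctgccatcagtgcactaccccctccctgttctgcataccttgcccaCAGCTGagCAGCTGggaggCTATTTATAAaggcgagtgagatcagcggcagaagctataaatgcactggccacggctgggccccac
Ldb3, chr14:34588682-34588931, minus strand: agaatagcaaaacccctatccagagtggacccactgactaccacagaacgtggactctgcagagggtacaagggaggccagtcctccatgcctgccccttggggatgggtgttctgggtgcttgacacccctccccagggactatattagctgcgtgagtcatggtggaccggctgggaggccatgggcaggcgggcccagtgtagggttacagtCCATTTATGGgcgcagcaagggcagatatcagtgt
Pdlim3, chr8:45885237-45885486, plus strand: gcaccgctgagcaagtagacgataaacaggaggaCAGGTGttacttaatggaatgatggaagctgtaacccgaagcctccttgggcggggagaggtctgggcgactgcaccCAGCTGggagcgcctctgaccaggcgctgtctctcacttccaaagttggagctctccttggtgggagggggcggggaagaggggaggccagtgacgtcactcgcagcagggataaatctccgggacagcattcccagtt
The Srpk3 window held 1 MEF2 match, CTATTTATAA, 67 to 58 bases before the start, with 2 E-boxes, CAGCTG, just upstream at 86 to 81 and 78 to 73. A MEF2 match was present in 2.92% of the 32851 RefSeq windows of this length, and in no window of the other 7 members in that table. The Ldb3 window held 1 CArG match, CCATTTATGG, 35 to 26 bases before this start. That motif was in 1.47% of all windows and, among members, also in a window of Fhl1. The Pdlim3 window held E-boxes at 216 to 211 and 139 to 134 bases. That motif was in 66.2% of all windows and in 7 of the 11 member windows, which belonged to 6 of the 8 members. In the same table Ldb3 has a second, overlapping window, and the printed Srpk3 and Ldb3 windows lie inside genes with another annotated start upstream. The CArG box was added after the windows had been read, and a match is a run of letters, not a measured site.

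The PDZ-LIM members were Ldb3, Pdlim3, Pdlim7 and Pdlim5. Ldb3, which encodes cypher (ZASP), was measured by 3 probe sets. On 1451999_at its intensity was 720, 1126 and 3838 (lowest, median, highest) in JA16 samples, against 561, 727 and 2182 in saline samples. In JA16 samples the median was 830 for replicates 1 to 6 against 2624 for replicates 7 to 10, and the saline medians were 659 and 1720, so level followed the array set more than the group. Within pairs every JA16 sample was higher, by 0.094 to 1.31. The difference was 0.55 (SE 0.10, limma adjusted p = 0.0485), and the earlier 6 pairs alone gave 0.44 (SE 0.12), the later 4 pairs 0.71 (SE 0.17). With 1 pair left out it ran from 0.46 to 0.60. The call held without pair 1 and was lost without any other pair (adjusted p between 0.0736 and 0.135) and without pairing (SE 0.35, limma adjusted p = 0.9999).

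The 2 brighter Ldb3 probe sets had smaller differences, neither of them called. On 1416752_at the intensities were 18348, 21500 and 24873 in JA16 samples, against 15811, 19715 and 22212 in saline samples, a difference of 0.16 (SE 0.043, limma adjusted p = 0.162) with 9 of 10 pairs higher. On 1433783_at they were 9988, 13525 and 14406 in JA16 samples, against 10436, 12028 and 12438 in saline samples, with 8 JA16 samples above the highest saline sample and 1 below the lowest. That difference was 0.15 (SE 0.056, limma adjusted p = 0.251). The difference on 1451999_at exceeded the one on 1416752_at by 0.39 (SE 0.097) and the one on 1433783_at by 0.40 (SE 0.11), in 9 of 10 pairs each (exact sign-flip p = 0.00391 each, adjusted p = 0.0195). These tests too were chosen after seeing the data. Which Ldb3 transcripts each probe set reads was not tested.

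Pdlim3, which encodes the actinin-associated LIM protein, had 1 probe set, at 3322, 5357 and 11862 in JA16 samples, against 2806, 4099 and 10022 in saline samples. Its levels also followed the array set, with JA16 medians of 4356 and 10405 and saline medians of 3108 and 9496 in replicates 1 to 6 and 7 to 10. All 10 pairs were higher in JA16, by 0.061 to 0.74. The difference of 0.33 (SE 0.066, limma adjusted p = 0.0694) was not called. The earlier 6 pairs gave 0.40 (SE 0.0905) and the later 4 pairs 0.21 (SE 0.078), and the test of that change gave -0.20 (SE 0.13, limma adjusted p = 0.9998).

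Pdlim7, which encodes Enigma, was at 7421, 10056 and 12983 in JA16 samples, against 5402, 8528 and 10704 in saline samples on 1417959_at. Its difference was 0.20 (SE 0.056, limma adjusted p = 0.174), with 8 of 10 pairs higher. The dimmer 1428319_at was at 421, 567 and 718 in JA16 samples, against 349, 417 and 737 in saline samples (0.32, SE 0.12, limma adjusted p = 0.251), again with 8 of 10 pairs higher. Pdlim5, which encodes ENH, held 3 of the 17 probe sets and gave no common direction. The brightest, 1429783_at, was at 0.068 (SE 0.051) and 1421413_a_at at 0.054 (SE 0.059), with 6 of 10 pairs higher on each. The dim 1427475_a_at was at -0.35 (SE 0.17, limma adjusted p = 0.323), lower in 8 of 10 pairs and as far as -1.59 in replicate 6, without which it was at -0.21.

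**Figure D2:**
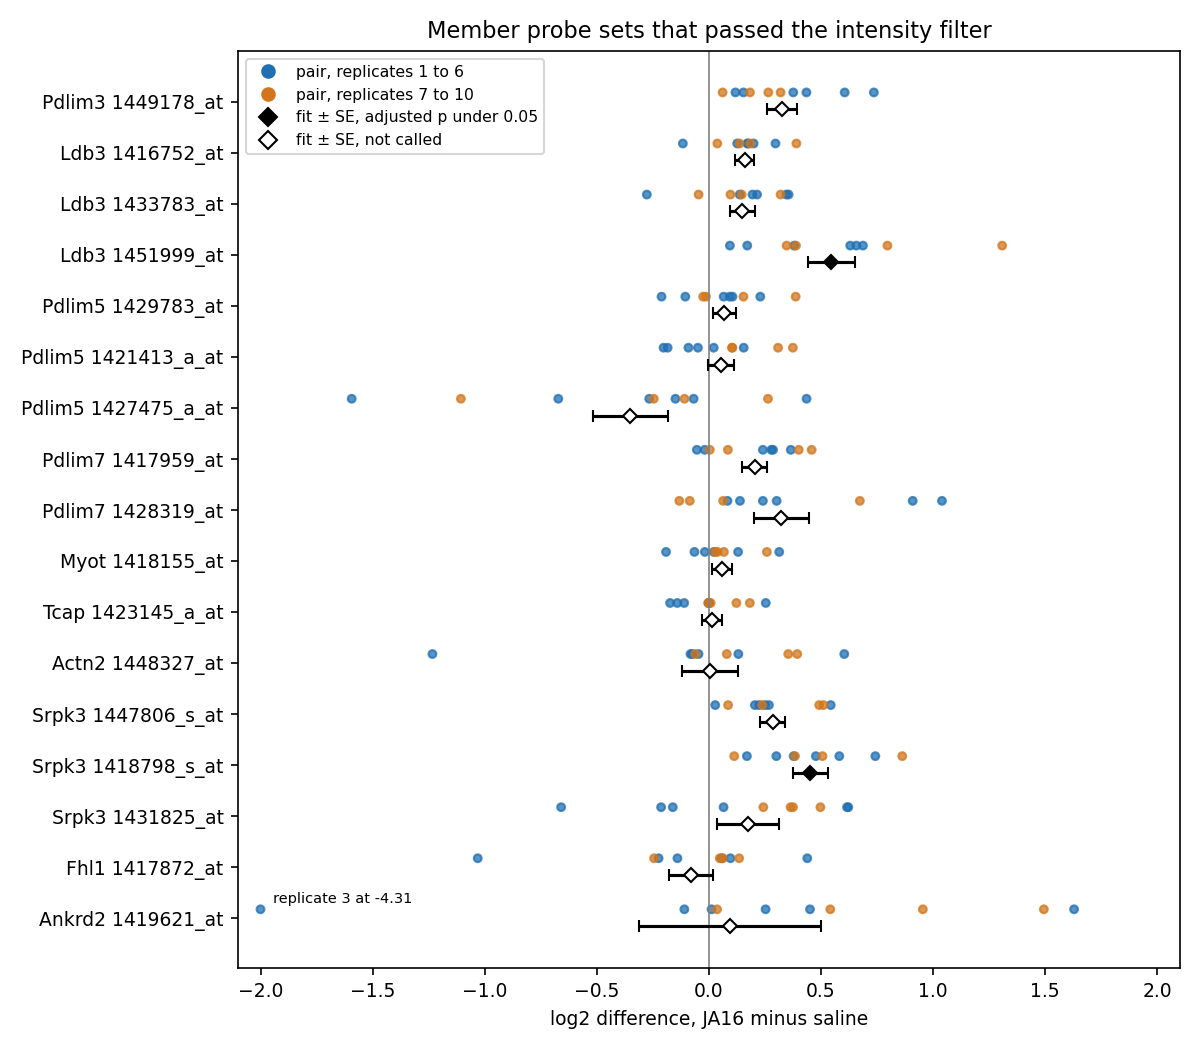
Log2 difference (JA16 minus saline) of the 17 member probe sets that passed the filter: dots are the 10 pairs, coloured by array set, and diamonds the fitted difference with its SE, filled where the adjusted p is under 0.05. The 2 filled diamonds are Ldb3 1451999_at at 0.55 and Srpk3 1418798_s_at at 0.45, and the replicate 3 pair of Ankrd2, at -4.31, is drawn at the left edge.

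For the core lattice genes no difference passed the test. Tcap, which encodes telethonin, the cap of titin at the Z-disc and a protein reported to bind myostatin, was at 13850, 15938 and 19592 in JA16 samples, against 12921, 16099 and 17630 in saline samples. Its difference was 0.014 (SE 0.044, limma adjusted p = 0.905), with 5 of 10 pairs higher. Myot, which encodes the actin and alpha-actinin binding protein myotilin, was at 14453, 16056 and 20354 in JA16 samples, against 13069, 16009 and 16858 in saline samples (0.058, SE 0.046, limma adjusted p = 0.538). Both had narrow spreads, with pair differences from -0.17 to 0.25 for Tcap and from -0.19 to 0.31 for Myot. The differences of these genes, of Actn2 and of the brightest Pdlim5 probe set turned below 0 under quantile normalization (between -0.058 and -0.0065).

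Actn2, the alpha-actinin present in all muscle fibres, was at 5311, 11321 and 19873 in JA16 samples, against 6750, 11974 and 13868 in saline samples. The lowest and the highest JA16 values, from replicates 3 and 2, lay outside the saline range on opposite sides, and the difference was 0.0066 (SE 0.12, limma adjusted p = 0.987). Fhl1, which encodes a protein of LIM domains tied to muscle growth and stretch sensing, was at 6969, 11404 and 17353 in JA16 samples, against 9391, 12750 and 14241 in saline samples (-0.080, SE 0.0996, limma adjusted p = 0.715). JA16 replicates 3 and 2 again gave the lowest and highest values.

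Ankrd2, an ankyrin repeat protein that responds to stretch and is richer in slow fibres, varied most. It was at 208, 4715 and 12563 in JA16 samples, against 1734, 4096 and 5603 in saline samples, and 8 of 10 pairs were higher. The value of 208 was in JA16 replicate 3, where the next lowest JA16 sample had 3703. Its difference was 0.095 (SE 0.41, limma adjusted p = 0.932) over all pairs and 0.58 (SE 0.16, limma adjusted p = 0.238, unadjusted p = 0.00294) without pair 3. Without that pair Actn2 was at 0.14 (SE 0.071) and Fhl1 at 0.025 (SE 0.063), neither of them called. In replicates 7 to 10 alone Ankrd2 was at 0.76 (SE 0.20) and Actn2 at 0.19 (SE 0.095), and in replicates 1 to 6 they were at -0.35 (SE 0.56) and -0.12 (SE 0.17).

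Most genes of slow fibres were low in the same JA16 sample, with 10 of 11 below every other sample. The exception was Tpm3, at 1976, where other JA16 samples went down to 1268 and saline samples to 1397, and Casq2 was only just below, at 1009.5 against at least 1016 and 1015. The troponin gene Tnnt1 was at 115 in JA16 replicate 3, against 1941 or more in the other JA16 samples and 3735 or more in saline samples, and the myosin light chain gene Myl3 was at 990, against at least 13503 and 12621. Over all samples 11 of 11 slow fibre genes had a difference below 0, with a median of -0.51 (-0.22 without pair 3) beside -0.036 for all probe sets. Their summed intensity ran from 11973 to 158036 in JA16 and from 63726 to 131219 in saline samples, no gene was listed at 0, and 0 were called by limma (1 lower at an unadjusted p under 0.05). Fewer slow fibres and less of these RNAs per fibre cannot be told apart in whole muscle. Within pairs the Ankrd2 difference followed the mean of the slow fibre genes (Pearson r = 0.86, permutation p = 0.013, adjusted p = 0.0433 over the 10 members; Spearman rho = 0.48, permutation p = 0.167, adjusted p = 0.53; 10 pairs). For Actn2 r was 0.87 (permutation p = 0.00738, adjusted p = 0.0369; rho = 0.43, p = 0.218, adjusted p = 0.53). Without pairs 2 and 3, the farthest from the median, r was 0.0043 for Ankrd2 and 0.079 for Actn2, so both relations rest on those pairs. Fhl1 had r = 0.79 (permutation p = 0.0243, adjusted p = 0.0607; rho = 0.26, p = 0.468, adjusted p = 0.674) and -0.55 without them.

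Pdlim3 ran the other way, higher in JA16 where slow fibre genes were lower (r = -0.80, permutation p = 0.00426, adjusted p = 0.0369; rho = -0.77, permutation p = 0.0123, adjusted p = 0.123), and r was -0.61 without pairs 2 and 3. Its pair 3 difference was the highest of the 10 (0.74), and without that pair Pdlim3 was at 0.28 (SE 0.061, limma adjusted p = 0.135). Srpk3 on 1447806_s_at had r = -0.56 (permutation p = 0.0877, adjusted p = 0.175; rho = -0.64, p = 0.055, adjusted p = 0.275), and -0.28 without the 2 pairs. The other 5 members had r between -0.14 and 0.34, with adjusted p of 0.563 or more.

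**Figure D3:**
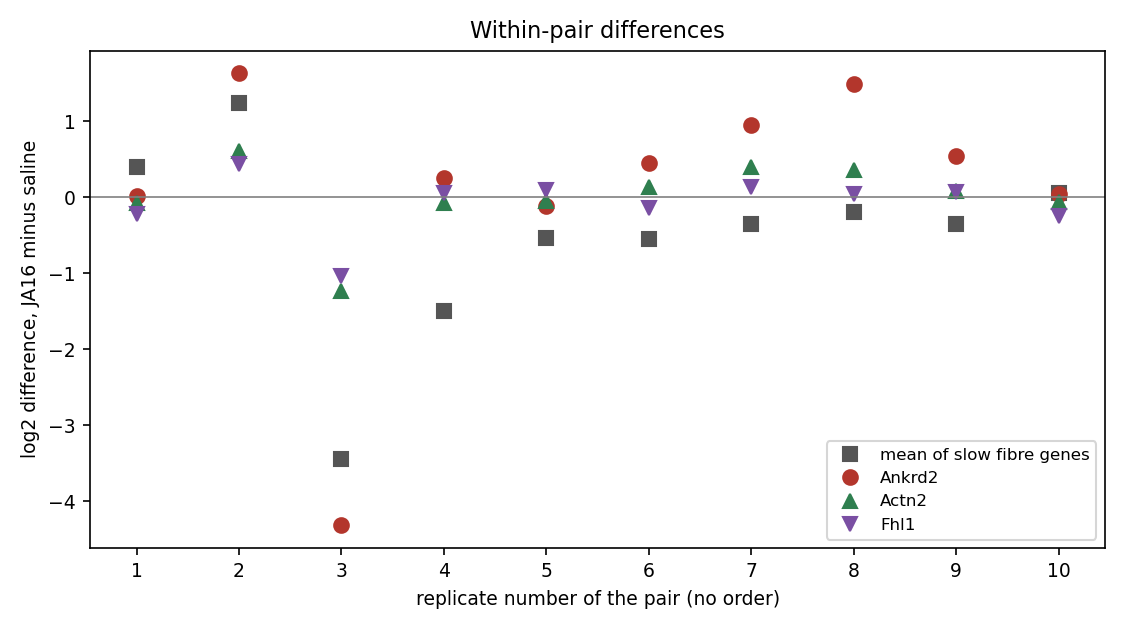
Within-pair log2 difference (JA16 minus saline) of Ankrd2, Actn2, Fhl1 and the mean of 11 slow fibre genes, for each replicate number. In pair 3 all 4 are at their lowest, with Ankrd2 at -4.31 and the slow fibre mean at -3.44, and in pair 2 all 4 are at their highest.

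Among pairs, the brightest probe sets of all 10 genes were higher in JA16 in replicates 2 and 7, and those of 3 of 10 were in replicate 1. In the other pairs 5 to 9 genes were higher. The median over the 10 genes ran from -0.099 in pair 1 to 0.39 in pair 7, while the median over all probe sets stayed between -0.086 and 0.00048 in the 10 pairs. The likeness of single genes was measured as the Pearson correlation of the 10 within-pair differences with each of 11199 other genes. Ankrd2 was most like Fndc5 (r = 0.99), Csrp3 (0.99) and Actn2 (0.98), and Actn2 was most like Fndc5, Ankrd2 and Tmem74b (0.97 to 0.99). Fhl1 was most like Myh1 (0.98), Zdhhc23 and Csrp3. Srpk3 was most like Cobl (0.90), Nup88 and Tigar, and Pdlim3 most like Apex2 (0.88), Focad and Rad23b. In each pair all genes were read in the same samples, and pair 3 sets much of the spread of Ankrd2, Actn2 and Fhl1. The closest genes were Ndufa1 (0.97) for Ldb3, Art3 (0.94) for Pdlim5, Dus1l (0.96) for Pdlim7, Cox6b1 (0.96) for Myot and Atp5mpl (0.96) for Tcap.

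Among relatives of the members, limma called 0 of 56 genes in 7 lists, which were also chosen with earlier results known. At an unadjusted p under 0.05, 14 were higher and 2 lower, beside 6.37% and 9.31% of all probe sets. The SR protein kinase and Clk genes had 2 of 6 above 0 and a median of -0.096, with Clk4 at -0.20 (SE 0.14) and Clk2 at -0.19 (SE 0.14), and 0 had an unadjusted p under 0.05. Of the MEF2 genes 0 of 3 measured were above 0, with Mef2a at -0.21 (SE 0.10) and Mef2c at -0.068 (SE 0.068). With centred array medians 2 of the 3 were above 0. Of 3 other PDZ-LIM genes 1 was above 0. Pdlim4 was at -0.23 (SE 0.14) and Pdlim2 at -0.031 (SE 0.16). Fhl2, the 1 FHL relative that passed the filter of 3, was at -0.20 (SE 0.27) and 0.066 without pair 3, and Ankrd1 and Ankrd23, relatives of Ankrd2, were at -0.097 (SE 0.19) and 0.046 (SE 0.055).

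Other Z-disc genes numbered 37, of which 35 were measured. Their median was 0.069, beside -0.036 for all probe sets, 25 were above 0, and 13 higher and 1 lower had an unadjusted p under 0.05 in the paired fit, against 6.37% and 9.31% of all. Without pairing 0 had one, and with quantile normalization the median was 0.0054 with 18 above 0. Among the calsarcin genes, Myoz2, of slow fibres, was at -0.43 (SE 0.36) and 0.016 without pair 3, while the fast fibre forms Myoz1 and Myoz3, chosen after their values were seen, were at 0.11 (SE 0.043) and 0.14 (SE 0.044). Fblim1, a dim probe set, was at -0.61 (SE 0.28). Capzb, which encodes a subunit of the protein that caps actin filaments at the Z-disc, was the 1 gene of this list higher in all 10 pairs (0.20, SE 0.053, limma adjusted p = 0.162), and it too was singled out after its values were seen. Among M-band genes, from the middle of the sarcomere, 4 of 6 were above 0, with Myom3 at -0.50 (SE 0.43) and 0.002 without pair 3, and Nbr1 at -0.14 (SE 0.065). With quantile normalization 3 of the 6 were above 0.

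**Figure D4:**
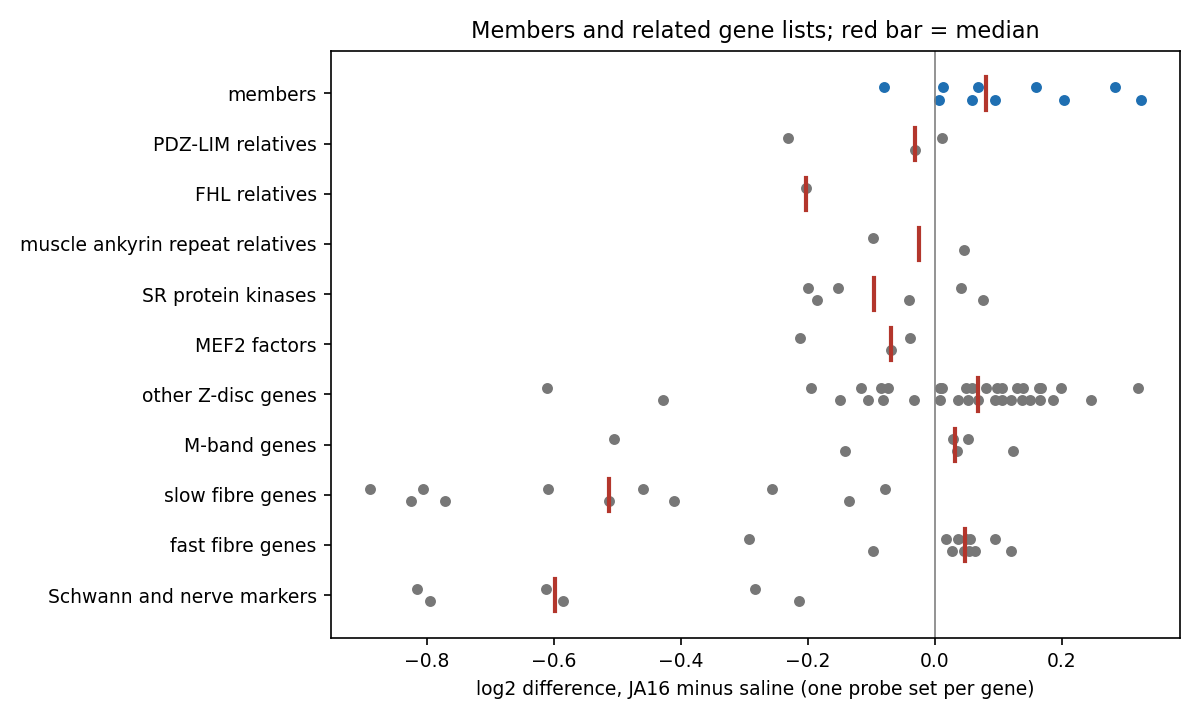
Log2 difference (JA16 minus saline) of each measured gene, by its brightest probe set, for the 10 members, related lists, fibre type genes and Schwann cell markers, with red bars at list medians. The members' median was 0.081 and the other Z-disc genes' 0.069 (0.031 and 0.0054 with quantile normalization). The slow fibre genes' median was -0.51 (-0.22 without pair 3).

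Markers of other cells moved beside these values. Schwann and nerve markers were below 0 for 6 of 6 (median -0.60, 5 lower with an unadjusted p under 0.05 beside 9.31% of all probe sets, summed intensity 6529 to 18250 in JA16 and 9222 to 18784 in saline samples), and their mean was lowest in pair 3 (-1.87). Fibroblast and tendon markers were below 0 for 10 of 11 (median -0.22, sums of 25823 to 67833 and 38012 to 68217). Fast fibre genes were above 0 for 10 of 12 (median 0.048), and for 3 of 12 with quantile normalization (median -0.024). Smooth muscle and mural markers had a median of -0.10 over 5. The 1 of them above 0 was Des (0.081), which is also in the list of other Z-disc genes. Macrophage and leukocyte markers had a median of -0.11 over 8, adipocyte markers -0.32 over 2 and the 1 measured blood marker was at -0.096. Of these lists limma called 0 genes, and, apart from the correlations with slow fibre genes, their part in the members' values was not tested.

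The 7 probe sets under the filter, 4 of Pdlim5 and 1 each of Pdlim7, Srpk3 and Fhl1, carried little signal. In the fit without a filter their differences ran from -0.86 (Fhl1 1459003_at, SE 0.45) to 0.89 (Pdlim5 1422862_at, SE 0.59), and the lowest limma adjusted p was 0.529. The difference of the JA16 effect between the 2 array sets was called for no member by limma: the lowest adjusted p of that test was 0.9998, and 1 of 17 had an unadjusted p under 0.05, Pdlim5 1421413_a_at (0.28 higher in replicates 7 to 10, SE 0.10), against 2.62% of all probe sets.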

How the data were processed

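The authors deposited 1 intensity per probe set and sample on a linear scale, from MAS5 per the submitters' processing notes, with no version; no label states masking or detection. Each array had a mean of 500.0 after trimming 2% of probe sets from either end. The number of arrays limits the precision. A floor of 0.1 replaced 5 values not above 0 before log2 was taken. The main fit was limma 3.58.1 in R 4.3.3 (lmFit, eBayes with an intensity trend) with the replicate number as a block, on all 20 samples and 22517 probe sets. Same-numbered samples have neighbouring array numbers in the labels. Their deviations from group means correlated at 0.45 to 0.78 in all 10 pairs, above the limit of 0.1 set for pairing. The median was -0.13 for samples of different numbers, which include those of different array sets. Of the 10 saline samples 6 correlated best with their own partner, and of the 10 JA16 samples 5 did. Saline comes first by array number in each pair, so array order and treatment cannot be told apart. The fit was tested on simulated data. There it called 35 of 100 changes of 0.5 on the log2 scale, 78 of 100 changes of 1.0 and 8 of 22317 unchanged probe sets.

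Members and lists were chosen with earlier results of these data known. Genes named from the related lists were those called or the 2 largest differences in a list, and, for likeness, the 3 most like each member, of which some are printed. Fibre type genes, Actn3, Capzb, Myoz1 and Myoz3 were named after their values were seen. Symbols of all 24 probe sets matched a RefSeq table by gene identifier. Figures were drawn with matplotlib 3.10.9, and tables joined with pandas 2.3.3. Alternatives were no block, other filters, quantile normalization, centred medians, log2 of intensity plus 16, 1 probe set per gene, no cross-matching endings, the beta-actin ratio as a covariate, each array set alone and each pair left out. The test of the JA16 effect between array sets and the sign-flip tests between probe sets of a gene were chosen after seeing the data.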

Additional observations from a re-analysis of the deposited data

Results flagged for a closer look

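Ankrd2 in JA16 replicate 3 stood apart from the other JA16 samples: its intensity was 207.7, against 3703 in the next lowest, a gap of 0.70 of the group's whole log2 range and past the limit of Dixon's test. This was the 1 gap past the limit among 34 groups (17 member probe sets in JA16 and in saline samples), and chance alone passes about 1 in 20 groups. In the same sample 10 of 11 slow fibre genes were below every other sample. Over the 10 pairs the Ankrd2 difference correlated with the slow fibre mean (r = 0.86, permutation p = 0.013, adjusted p = 0.0433), and r was 0.0043 without pairs 2 and 3.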

How the results depend on the processing

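The calls changed with the pairing and with the number of pairs. With pairs left out apart, the difference of Srpk3 1418798_s_at ran from 0.44 to 0.52 over 9 alternatives and that of Ldb3 1451999_at from 0.44 to 0.71 over 10. The other Ldb3 and Srpk3 probe sets stayed above 0, some at much smaller sizes: Ldb3 1433783_at (0.067 with quantile normalization), Ldb3 1416752_at (0.094, likewise) and Srpk3 1431825_at (0.045 in the earlier 6 pairs, 0.37 in the later 4). With limma, 45 of all probe sets and 2 of the member probe sets were called in the paired fit. Without the replicate block these were 2 and 0, with centred array medians 13 and 0, with the beta-actin ratio as a covariate beside the block 2 and 0, in replicates 1 to 6 alone 0 and 0, and in replicates 7 to 10 alone 0 and 0. At an unadjusted p under 0.05 the 2 array sets gave 2158 and 1504 of all, and 7 and 8 of the 17 members. Member calls were 1 of 24 without a filter and 1 of 15 without cross-matching endings. The latter fit left out Srpk3 1418798_s_at and 1447806_s_at, and the remaining 1431825_at was at 0.17 (SE 0.14, limma adjusted p = 0.536). With 1 probe set per gene 0 of 10 were called (4 of 10 at an unadjusted p under 0.05), and neither probe set called in the main fit was tested. With an upper-quartile filter 4 of 16 were called, where Pdlim3 (adjusted p = 0.0479) and Srpk3 1447806_s_at (0.0401) joined. Quantile normalization (41 and 2) and log2 of intensity plus 16 (47 and 2) differed little. With 1 pair left out, 7 to 52 of all probe sets and 0 to 3 of the members were called: 38 and 3 without pair 1, 52 and 1 without pair 2, 27 and 1 without pair 10, and 7 to 14 and 0 without any of pairs 3 to 9.

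For Srpk3 1418798_s_at and Ldb3 1451999_at the adjusted p was 0.110 each with centred medians, 0.206 and 0.212 with the covariate and 0.9999 each without the block, and Ldb3 had 0.0530 without a filter. Fits of 1 array set or with a pair left out held fewer samples. Without the block the SE was 0.13 for Srpk3 and 0.35 for Ldb3, against 0.078 and 0.10 with it. What caused the lost calls was not tested.

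Of the differences of single probe sets across settings, 297 kept direction and side of the threshold, 27 lost the call, 3 gained one and 20 changed sign. Under quantile normalization the sign changed for Pdlim5 1429783_at (-0.0065), Myot (-0.016), Tcap (-0.058) and Actn2 (-0.055). In replicates 1 to 6 it changed for Pdlim5 1421413_a_at (-0.058), Tcap (-0.029), Actn2 (-0.12) and Ankrd2 (-0.35), and in replicates 7 to 10 for Fhl1 (0.00019). With 1 pair left out, Tcap ran from -0.013 to 0.035, Actn2 from -0.060 to 0.14, Ankrd2 from -0.076 to 0.58 and Fhl1 from -0.14 to 0.025, and none of these was called. In the related lists 0 genes were called under any setting.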
